A study of Hylyphantes graminicola with 5 samples.

Results

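EFLamide-rich neurons (EFLa-rich in the plots) were defined here as kept cells with more than 100 unique molecular identifiers (UMIs) of *EFLa* (evm.TU.CTG-1268.15), the gene of the EFLamide precursor. A UMI marks 1 captured messenger RNA molecule, so each molecule was counted once. Kept cells had 500 to 60000 UMIs, at least 200 genes and a mitochondrial share under 40% of the UMIs. The rule found 437 cells, 1.40% of the 31147 kept cells. The files held 40233 cell barcodes before these limits.

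The cells came from the dissected brain of the spider *Hylyphantes graminicola*, a small sheet-web weaver, and were sequenced with a droplet method that reads the 3′ end of each molecule. There were 2 male and 3 female libraries, each from a pool of 35 to 40 adults of mixed age, with no treatment and no wild-type or mutant groups. A library thus averages over many animals, the spread between animals was not measured, and differences between libraries of 1 sex may be technical.

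A neuropeptide precursor is a secretory protein that enzymes cut into short peptides, which neurons store in dense-core vesicles and release as slow signals. EFLamides are the protostome relatives of vertebrate thyrotropin-releasing hormone and act on receptors of the G protein-coupled family. In the nematode *Caenorhabditis elegans* the related peptide promotes growth, and its role in spiders is not part of these data.

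The libraries held 12269605 to 35943668 UMIs. Between any pair of libraries, 5 to 15 kept barcodes were shared, at most 0.243% of the smaller library, and 0 of these were EFLamide-rich in both. An automatic doublet caller marked 24 kept cells (0.077%), too few for it to have worked, and 0 EFLamide-rich cells. Of the 1869 cells with the highest doublet scores, 6% of each library, 49 were EFLamide-rich (11.2% of the 437), so the results on gene counts and co-expression were also computed without them. Female 2 and male 2 stood apart in RNA quality. The median mitochondrial share of EFLamide-rich cells was 23.0% in male 2 and 25.5% in female 2, against 15% in male 1, 11.7% in female 1 and 10.9% in female 3.

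The numbers of EFLamide-rich cells were 148 in male 1, 104 in male 2, 34 in female 1, 22 in female 2 and 129 in female 3. They made up 2.04% of kept cells in male 1 (Clopper-Pearson 95% interval 1.73% to 2.39%) and 1.28% in male 2 (1.05% to 1.55%). In the female libraries they made up 1.03% in female 1 (0.715% to 1.44%), 0.462% in female 2 (0.289% to 0.698%) and 1.68% in female 3 (1.40% to 1.99%). Female 2 was the lowest library and male 1 the highest, and female 3 lay between the male libraries, so the sexes overlapped. These intervals cover counting error only.

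**Figure D1:**
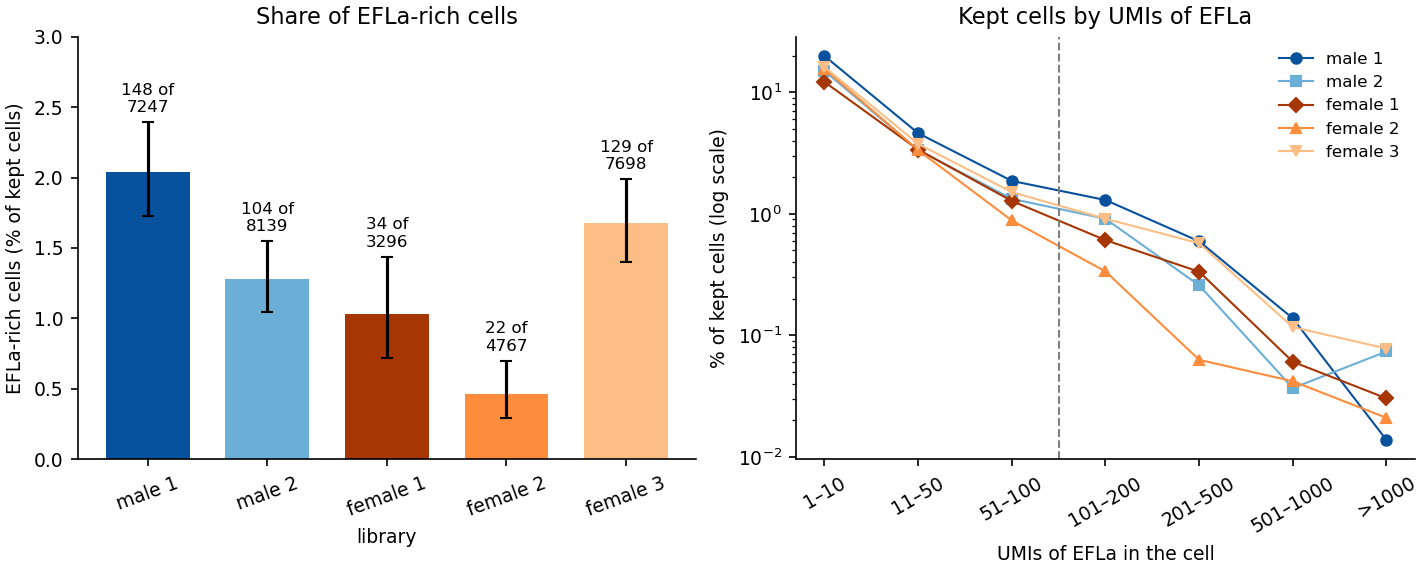
Left, EFLamide-rich cells as a percentage of kept cells in each library, with 95% Clopper-Pearson intervals and the number of cells. Right, the percentage of kept cells (log axis) by UMIs of EFLa in the cell, 1 line per library, with the limit of 100 UMIs as a dashed line. The share was 2.04% and 1.28% in the male libraries and 1.03%, 0.462% and 1.68% in the female libraries, and the lines cross the limit without a gap.

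The limit on *EFLa* did not fall in a gap of its distribution. The lowest values inside were 106 UMIs in female 1 and 105 in female 2, and 1 UMI above the limit in the other libraries. The highest values outside were 100 UMIs in male 1, male 2 and female 3, 98 in female 1 and 95 in female 2. There were 47 cells within 10 UMIs above the limit and 58 cells with 91 to 100 UMIs, and 443 kept cells had 51 to 100 UMIs. Whether a separate class of cells lies within this range cannot be read from these counts.

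*EFLa* itself, which chose the cells, is given as a description. The median was 162.5 UMIs per cell in male 1, 154 in male 2, 179 in female 1, 171 in female 2 and 180 in female 3, and the highest cell had 2690 UMIs, in male 1. In the median cell it took 3.30% and 4.63% of all UMIs in the male libraries, and 5.11%, 4.86% and 4.09% in the female libraries. Most cells lay near the limit. There were 274 cells with up to 200 UMIs (62.7%), 122 with more than 200 and up to 500, and 41 with more than 500. EFLamide-rich cells held 62.3% of the *EFLa* UMIs of kept cells in male 1, 59.9% in male 2, 56.8% in female 1, 39.7% in female 2 and 68.0% in female 3, and the rest lay in cells below the limit.

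Low *EFLa* counts were widespread. Of the 30710 other kept cells, 21.6% had at least 1 UMI, and their summed level was 626 CPM (UMIs of the gene per 1000000 UMIs). Cells that should lack a neuropeptide gave the background. Of 192 cells with at least 10 UMIs of hemocyte markers, 13.0% had an *EFLa* UMI, at 99.0 CPM and a median depth of 2969 UMIs. Of 202 cells with at least 10 UMIs of glia markers, 10.4% had one, at 440 CPM and a median depth of 2374 UMIs. In glia-marker cells of female 3 the level was 1338 CPM, with 1 cell of 214 UMIs that itself passed the limit. The share of other kept cells with an *EFLa* UMI (median depth 2629 UMIs) was above both pooled shares, but not above that of hemocyte-marker cells in every library. It was 17.0% in female 1 and 19.9% in female 2, against 25% of 4 and 26.7% of 15 hemocyte-marker cells there, so a low count of *EFLa* is not read as expression. The highest count in any hemocyte-marker cell was 33 UMIs.

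The label of neuron held against the markers as a set, while single neuron genes went both ways. *Syt1*, a calcium sensor of transmitter vesicles, had a UMI in 100% of EFLamide-rich cells in every library. After each cell was thinned to 1000 UMIs it was found in 95.5% to 100% of EFLamide-rich cells, against 93.0% to 97.4% of other kept cells. The summed level of 5 neuron genes (*brp*, *nSyb*, *elav*, *ELAV2_S1* and *Syt1*) was 7271 to 16295 CPM in EFLamide-rich cells, against 8280 to 15094 CPM in other kept cells. Singly, *elav* (log2 fold change -0.30) and *brp* (-0.15) were lower than in other kept cells in every library, and *ELAV2_S1* (0.12) was higher. *nSyb* (0.15) and *Syt1* (0.00) had no single direction, and none of the 5 was called. The 8 glia genes summed to 15.7 to 62.0 CPM in EFLamide-rich cells, against 68.4 to 245 CPM in other kept cells. The 5 hemocyte genes summed to 9.04 to 27.0 CPM, against 40.5 to 112 CPM in other kept cells. The 7 fat body genes, some of which neurons also use, summed to 233 to 443 CPM, against 302 to 1056 CPM in other kept cells.

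EFLamide-rich cells were deeper than most cells. Their median was 5415 UMIs in male 1, 3637.5 in male 2, 3643 in female 1, 3593.5 in female 2 and 5676 in female 3. Other kept cells had medians of 2949, 2556, 2579.5, 1917 and 3067 UMIs in the same order of libraries. A cell with few UMIs can hardly reach 100 of 1 gene, so the limit itself favours deep cells. The 6484 other peptide-rich cells, kept cells below the *EFLa* limit with more than 100 UMIs of at least 1 of the other 70 precursors, had medians of 5397.5, 4089, 4299, 3516 and 5688 UMIs. They were therefore used as a second set of cells to compare with.

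EFLamide-rich cells were scattered among other neurons by their other genes. Each cell was placed among its 20 nearest neighbours of the same library in 30 principal components of 2000 variable genes, with every precursor left out. Of the neighbours of EFLamide-rich cells, 3.14% in male 1, 2.21% in male 2, 2.50% in female 1, 0.227% in female 2 and 2.75% in female 3 were themselves EFLamide-rich. These shares were 1.54, 1.73, 2.42, 0.492 and 1.64 times the share of EFLamide-rich cells among kept cells, above 1 in all libraries but female 2, which held 22 of them. Of the neighbours of other peptide-rich cells, 2.77%, 1.51%, 1.52%, 0.603% and 2.43% were EFLamide-rich in the same order of libraries, which was also above the share among kept cells in all 5. The highest share for a single cell was 15%, so 0 of the 437 cells had 25% or more. The 15 cells with more than 1000 *EFLa* UMIs had a mean of 2.00%, against 2.57% for the 274 cells with up to 200 UMIs.

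Neurons often express several precursors. Of the 437 EFLamide-rich cells, 151 (34.6%) had more than 100 UMIs of at least 1 second precursor, 93 of them of 1 and 58 of 2 or more. The share was 36.5% in male 1, 24.0% in male 2, 29.4% in female 1, 27.3% in female 2 and 43.4% in female 3. Among other peptide-rich cells, 33.3%, 23.0%, 26.1%, 19.9% and 31.0% had a second precursor in the same order of libraries. These shares are given side by side only, since an EFLamide-rich cell can meet the count with any of 70 precursors, while another peptide-rich cell already holds 1 of them and needs a further one. Without the highest doublet scores, 131 of 388 EFLamide-rich cells (33.8%) had a second precursor.

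*EFLa* was the leading precursor in 323 of the 437 cells and held over 90% of all precursor UMIs in 168. The cells with the most *EFLa* held little else. The 15 cells with more than 1000 *EFLa* UMIs came from all 5 libraries, with 1 in male 1, 6 in male 2, 1 in female 1, 1 in female 2 and 6 in female 3. *EFLa* took 18.0% to 53.3% of all their UMIs (median 32.1%). All other precursors together took 0.488% of their UMIs other than *EFLa*, and 0 of the 15 had a second precursor over 100 UMIs. This did not hold below 1000 UMIs. A second precursor was found in 16 of the 26 cells with more than 500 and up to 1000 *EFLa* UMIs, against 47 of 122 with more than 200 and up to 500, and 88 of 274 with up to 200. None of the 15 cells with more than 1000 *EFLa* UMIs, nor of the 26 with more than 500 and up to 1000, was among the highest doublet scores.

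**Figure D2:**
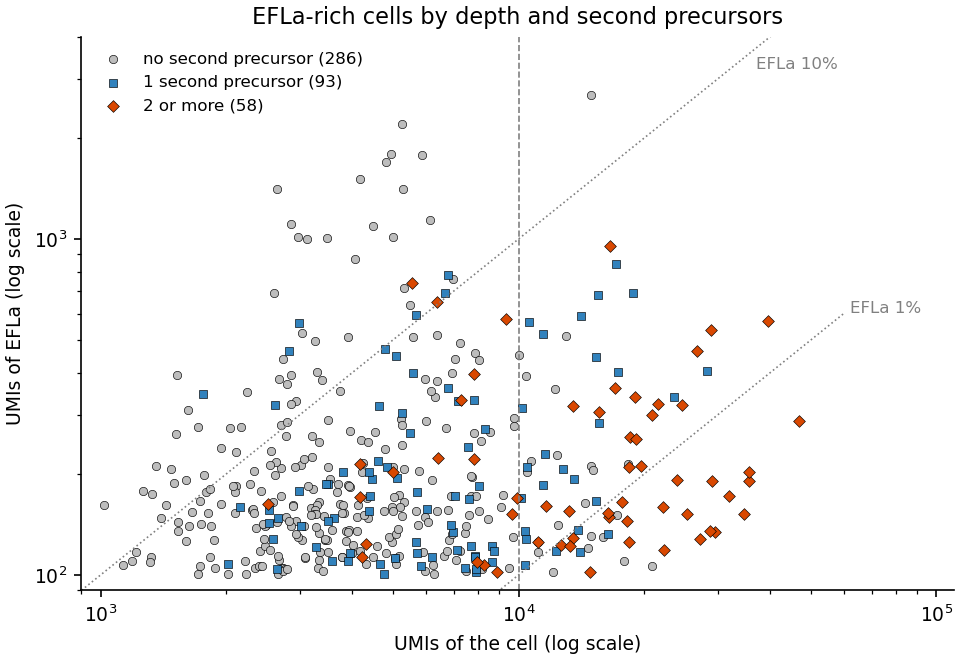
UMIs of EFLa against all UMIs of the cell, both on log axes, for the 437 EFLamide-rich cells, by the number of second precursors with more than 100 UMIs. Dotted lines mark an EFLa share of 1% and 10%, and the dashed line 10000 UMIs. Cells with 2 or more second precursors (58 cells) lie mostly at high depth, and the cells with the most EFLa have none.

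Large cells had a second precursor more often. Of the 88 EFLamide-rich cells with more than 10000 UMIs, 66 (75.0%) had a second precursor, against 85 of 349 (24.4%) at up to 10000 UMIs. The limit for a second precursor is a fixed count of UMIs, so deep cells reach it more easily. Among other kept cells, *AT* (allatotropin) passed this limit in 16.3% of cells over 10000 UMIs and 2.62% of smaller cells. *Proc* (proctolin) passed it in 22.3% and 4.22% of them. Whether EFLamide-rich cells differ here from other cells of the same depth was not tested. In the large EFLamide-rich cells *EFLa* took a median of 1.2% of the UMIs, against 4.79% in the smaller EFLamide-rich cells. Large cells were also more often EFLamide-rich. They made up 7.21% of kept cells over 10000 UMIs in male 1, 4.39% in male 2, 4.96% in female 1, 3.33% in female 2 and 4.48% in female 3, against 1.61%, 1.19%, 0.882%, 0.387% and 1.43% of smaller kept cells in the same order of libraries. Of the large EFLamide-rich cells, 14 of 88 were among the highest doublet scores, against 35 of 349 smaller ones, and whether any of them hold RNA of more than 1 cell was not tested further.

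The precursors met most often were *AT* (allatotropin), *Proc* (proctolin), *sNPF* (short neuropeptide F), *Calcitonin_2* and *DH31_1*, the last being a relative of the diuretic hormone 31 of insects. More than 100 UMIs of *AT* were found in 37 EFLamide-rich cells, of *Proc* in 34, of *sNPF* in 30, of *Calcitonin_2* in 27 and of *DH31_1* in 26. Next came *FMRFa_3* in 17 cells, *CCAP_3* and *OK* in 13 each, and *Mip* and *NTL* in 12 each. Of the 70 other precursors, 27 were met in at least 1 cell, 10 of them in 10 or more, and 43 in none. The pair met most often was *AT* with *Calcitonin_2*, in 15 cells.

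**Figure D3:**
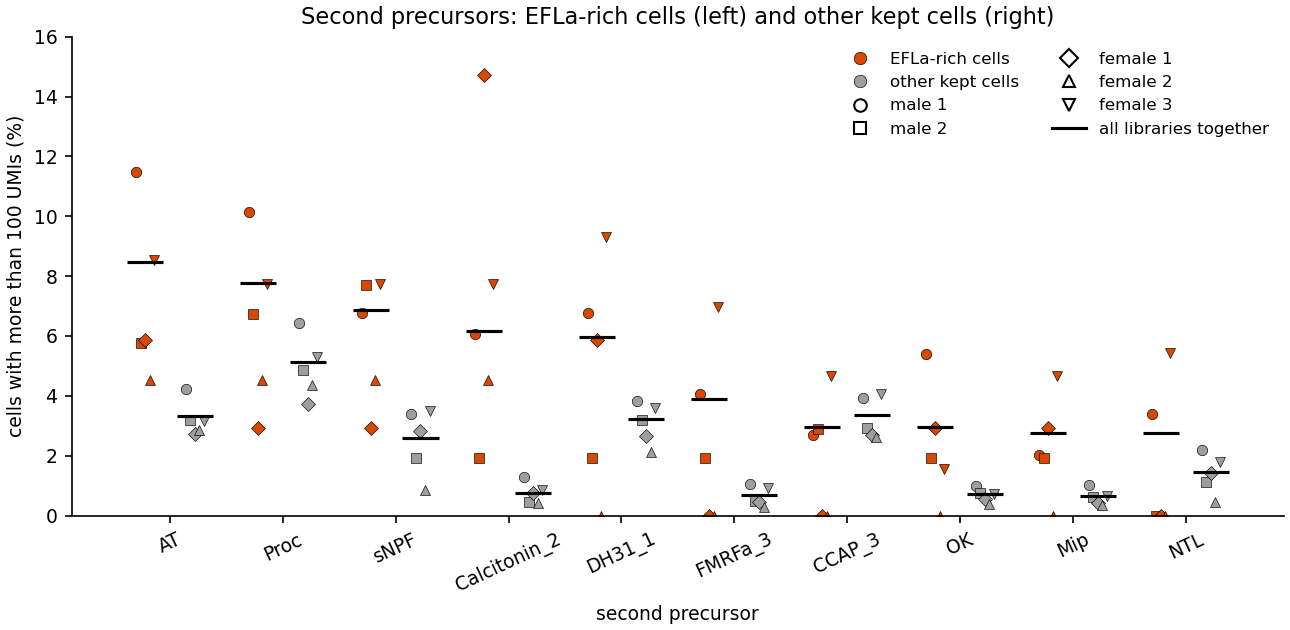
Percentage of cells with more than 100 UMIs of each of the 10 most frequent second precursors, EFLamide-rich cells (orange, left of each pair) and other kept cells (grey, right), 1 symbol per library and a bar for all libraries together. AT reached 8.47% of EFLamide-rich cells and 3.32% of other kept cells, and CCAP_3 2.97% and 3.36%, with no match in depth. Among cells of up to 10000 UMIs, AT reached 2.01% and 2.62%, and Proc 3.44% and 4.22%.

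*AT* stood out by its level. More than 100 UMIs were found in 11.5%, 5.77%, 5.88%, 4.55% and 8.53% of EFLamide-rich cells in male 1, male 2, female 1, female 2 and female 3, against 4.23%, 3.19%, 2.73%, 2.87% and 3.16% of other kept cells. This order did not hold at every depth. Among cells of more than 10000 UMIs the share was 34.1% of EFLamide-rich cells and 16.3% of other kept cells, while among cells of up to 10000 UMIs, 349 of the 437, it was 2.01% of EFLamide-rich cells and 2.62% of other kept cells. The 37 cells had a median of 1522 UMIs of *AT*, against 459.5 in other kept cells over that limit. Of these 37 cells, 30 had more than 10000 UMIs in all. Among kept cells of more than 10000 UMIs, EFLamide-rich cells made up 15.4% of the 149 cells with more than 1000 UMIs of *AT* and 4.25% of the 1364 cells with up to 100 UMIs of *AT*.

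The summed level of *AT* rested on these cells. It was 27011 and 17112 CPM in EFLamide-rich cells of male 1 and male 2, and 28931, 34547 and 19740.4 CPM in those of female 1, female 2 and female 3. In other kept cells it was 10031, 7673, 8278, 11376 and 8718 CPM, so that EFLamide-rich cells were higher in all 5 libraries without overlap (log2 fold change 1.32 ± 0.07 SE, edgeR adjusted p = 1.5e-12, n = 5 libraries). The 37 cells held 98.8% of the *AT* UMIs of EFLamide-rich cells, and 1 cell held 87.2% of those in female 1 and 97.0% of those in female 2. Among cells with up to 100 UMIs of *AT*, the level was 214, 472, 513, 1628 and 325 CPM in EFLamide-rich cells, against 612, 538, 614, 709 and 452 CPM in other kept cells, lower in all libraries but female 2. When the limit on *EFLa* was 200 UMIs, the fold change of *AT* was 0.20 (edgeR adjusted p = 0.96).

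To ask which genes differ in EFLamide-rich neurons, UMIs were summed over the cells of each library and compared with all other kept cells of the same library, with *EFLa* left out. Of 10850 genes tested, edgeR called 363 (3.35%) at an adjusted p under 0.05, of which 55 (0.507%) were higher and 308 (2.84%) lower in EFLamide-rich cells. Many calls rest on rare cells that a set of 437 can miss. For 218 of the 308 lower genes, 50% of the UMIs in other kept cells lay in so few cells that an equal share of them would be fewer than 3 EFLamide-rich cells, and so it was for 12 of the 55 higher genes. The 437 cells had 0 UMIs of 8 of the lower genes.

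Of the 70 other precursors 56 were tested, 3 were higher, 29 lower and 24 not called, with a median log2 fold change of -1.26, against -0.02 over all genes. The calls are 57.1% of the 56 tested, where 3.35% of all genes were called. The higher ones were *AT*, *Calcitonin_1* (1.59 ± 0.23) and *Calcitonin_2* (1.48 ± 0.25), the last being lower in male 1 (2588 CPM in EFLamide-rich cells, 3659.9 CPM in other kept cells). All 3 rested on few cells, and 50% of the *Calcitonin_1* UMIs lay in 3 EFLamide-rich cells. Of the 29 lower precursors, 28 had 50% of their UMIs in other kept cells worth fewer than 3 EFLamide-rich cells, among them *Tris* (-5.99 ± 0.20), *Corazonin* (-6.41 ± 0.23), *CCHa_2* (-6.51 ± 0.33) and *CCAP_1* (-7.65 ± 0.41). Summed over all 70, precursors took 47483 to 73465 CPM in EFLamide-rich cells, against 53134 to 73515 CPM in other kept cells.

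*CCAP_3* was the exception among the lower precursors by this measure only, since 50% of its UMIs lay in 297 other kept cells. It is 1 of the genes of crustacean cardioactive peptide, which times the moulting behaviour of insects. It had 1204 and 2713 CPM in EFLamide-rich cells of male 1 and male 2 and 1045, 202 and 2998 CPM in those of female 1, female 2 and female 3. In other kept cells it had 4185, 3009.5, 3472, 3779 and 4067 CPM. It was lower in every library, without overlap of the cell sets (log2 fold change -1.59 ± 0.32 SE, edgeR adjusted p = 0.0025). Rare cells may limit this gene too. It passed the limit for a second precursor in 13 EFLamide-rich cells (2.97%), 0 of them in female 1 and 0 in female 2. Of other kept cells, 3.36% passed the same limit.

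Genes of other cell types were lower too. In EFLamide-rich cells 4 of 6 tested glia genes were lower, among them the transporters *Gat* for GABA (-1.59 ± 0.28) and *Eaat2* for glutamate (-1.32 ± 0.23). So were 4 of 5 hemocyte genes, among them *Hml_3* (-1.87 ± 0.24), named after hemolectin, and 2 of 7 fat body genes, *AcCoAS* (-5.26) and *Ahcy* (-2.08). The median log2 fold changes of these lists were -1.46, -2.40 and -0.59, against -0.02 over all genes. Calls were 66.7%, 80% and 28.6% of the genes tested in them, where 3.35% of all genes were called. Of these 10 calls, each had 50% of its UMIs in other kept cells worth fewer than 3 EFLamide-rich cells. Against other peptide-rich cells, which are neurons too, 0 of the 8 genes of these lists that were tested were called. None of the 5 neuron genes (median 0.00 against all other kept cells) and none of 5 genes linked to mushroom bodies (median -0.17) was called in either comparison.

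The second comparison set EFLamide-rich cells against the 6484 other peptide-rich cells, with all 71 precursors left out, because both sets were chosen by a precursor limit. Of 8903 genes tested, 104 (1.17%) were called, 21 (0.236%) higher and 83 (0.932%) lower. For 29 of the 83 lower genes and 2 of the 21 higher genes, 50% of the UMIs of the other cells lay in cells worth fewer than 3 EFLamide-rich cells. DESeq2 called 20 higher and 39 lower genes (33.9% of its calls were higher, against 20.2% with edgeR). Without male 1 edgeR called 67 genes. The machinery of peptide release did not stand out. Of 20 tested genes of peptide processing and vesicle release 0 were called against other kept cells, with a median log2 fold change of -0.01 against -0.02 over all genes, and 0 of 19 against other peptide-rich cells (0.17, against -0.01 over all genes).

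*GATA2* (evm.TU.CTG-1120.10-evm.TU.CTG-1120.11), named after a zinc-finger transcription factor that in vertebrates takes part in the specification of neurons and blood cells, was higher in EFLamide-rich cells in both comparisons. On the scale of CPM without precursors it had 156 and 108 in EFLamide-rich cells of male 1 and male 2, and 238, 41.8 and 145 in those of female 1, female 2 and female 3. Other peptide-rich cells had 58.4, 54.2, 58.9, 53.5 and 46.0 in the same order of libraries. EFLamide-rich cells were higher in 4 libraries and lower in female 2, where 22 cells held 5 UMIs. The log2 fold change was 1.36 ± 0.15 SE against other peptide-rich cells (edgeR adjusted p = 3.7e-06) and 1.04 ± 0.14 SE against all other kept cells (edgeR adjusted p = 1.7e-05), n = 5 libraries.

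*GATA2* was found in many cells, though in female 1 its 43 UMIs were concentrated, with 50% of them in 2 of the 34 EFLamide-rich cells. It had a UMI in 117 of the 437 EFLamide-rich cells (26.8%), 50% of its 404 UMIs lay in 19 cells, and the highest cell had 20 UMIs. After thinning to 1000 UMIs per cell, it was found in 7.69% to 9.09% of EFLamide-rich cells of a library, against 2.81% to 3.23% of other peptide-rich cells and 4.19% to 5.04% of other kept cells. Without thinning the shares were 13.6% to 35.3%, 8.32% to 11.8% and 9.23% to 10.9%. A second precursor was about as frequent with *GATA2* as without it, at 35.0% of the 117 cells and 34.4% of the others. Without the library as a block, the call was lost against all other kept cells (adjusted p = 0.15) and against other peptide-rich cells (0.072).

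*GATA2* was also higher below the limit, in cells that the rule left out. Summed over all libraries, its level was 58.1 CPM without EFLa in kept cells with 0 *EFLa* UMIs, 61.0 with 1 to 10, 70.7 with 11 to 50 and 138 with 51 to 100. In the libraries the level of the 443 cells with 51 to 100 UMIs was 88.1 to 177 CPM, above the 50.5 to 67.1 CPM of cells with 0. Above the limit it was 140.5 CPM in cells with up to 200 and 153 CPM with more than 200 and up to 500. In the 41 cells with more than 500 it was 58.1 CPM, from 18 UMIs, which is the level of cells with none. These bins differ in depth, with median UMIs of 2518, 2997, 3698.5, 3951, 4146, 5293.5 and 5586.

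**Figure D4:**
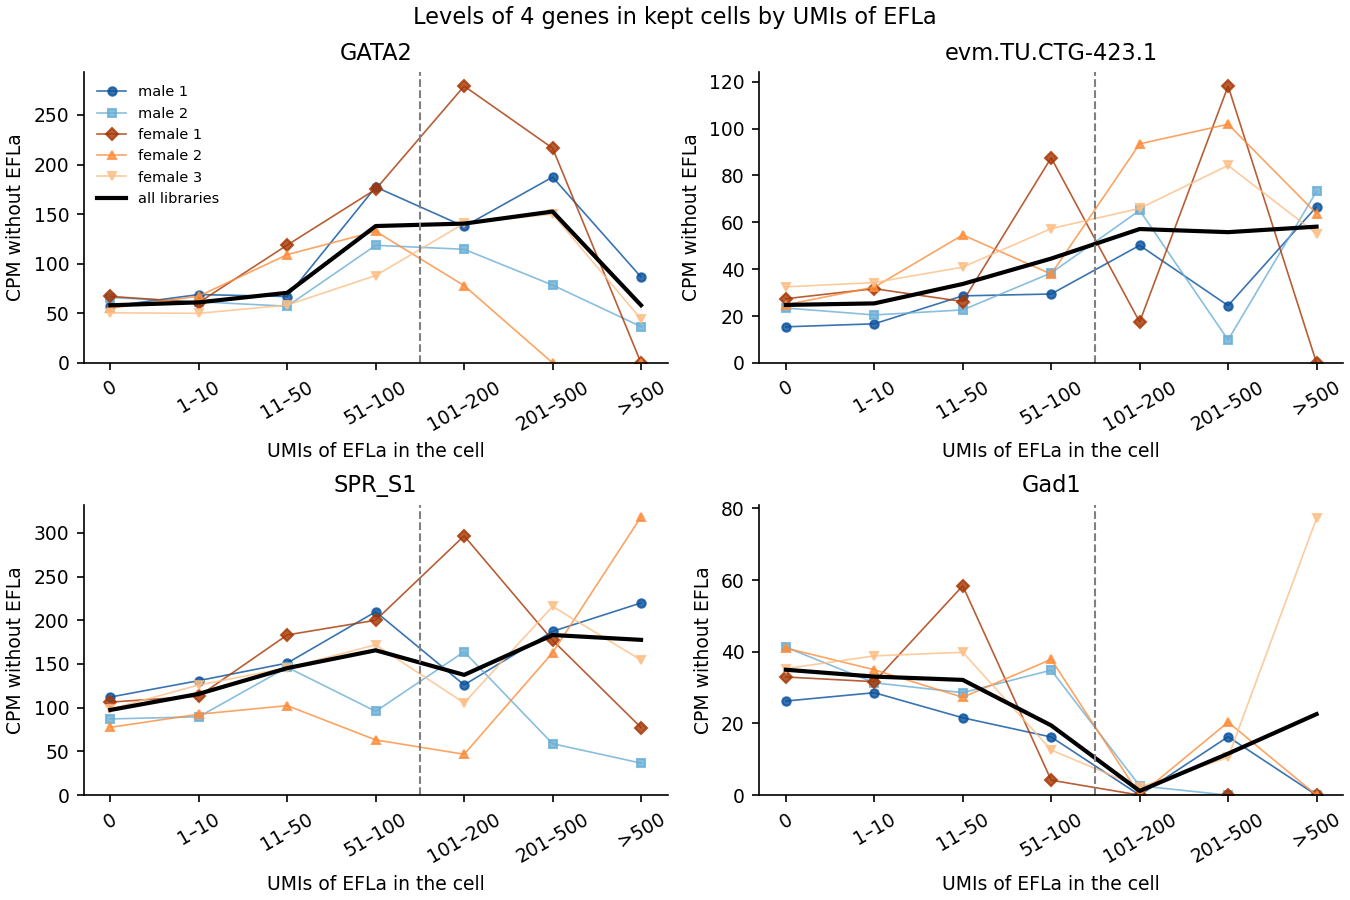
Levels of 4 genes in kept cells by UMIs of EFLa in the cell, in CPM without EFLa, with thin lines for libraries and a thick line for all libraries together. The dashed line marks the limit of 100 UMIs. GATA2 had 58.1 CPM in cells with 0 UMIs, 138 with 51 to 100 and 140.5 with up to 200 above the limit.

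A gene without a name, evm.TU.CTG-423.1, was also higher in both comparisons. It had 47.2 and 57.3 CPM without precursors in EFLamide-rich cells of male 1 and male 2, and 44.2, 100.4 and 77.7 in those of female 1, female 2 and female 3. Other peptide-rich cells had 16.8, 19.2, 29.4, 28.4 and 32.6, so EFLamide-rich cells were higher in all 5 libraries without overlap (log2 fold change 1.34 ± 0.16 SE, edgeR adjusted p = 5.0e-06, and 1.13 ± 0.14 SE against all other kept cells, edgeR adjusted p = 6.3e-06). It had a UMI in 105 of the 437 cells, and 50% of its UMIs lay in 31 of them. It was 24.7 CPM without EFLa in cells with 0 *EFLa* UMIs, 44.5 with 51 to 100 and 58.1 with more than 500, the last from 18 UMIs. The levels of female 1 and female 2 rest on few UMIs. In EFLamide-rich cells of female 1 it had 2 UMIs with up to 200 *EFLa* UMIs, 6 up to 500 and 0 above. In those of female 2 it had 6, 5 and 1 in the same order.

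Of 35 transcription factor genes listed, 24 were tested against all other kept cells, with 1 higher (*GATA2*), 1 lower and a median of -0.09. Against other peptide-rich cells 21 were tested, with 1 higher (*GATA2*), 4 lower and a median of -0.06. These last 5 calls are 23.8% of the 21 tested, where 1.17% of all genes were called. The list was chosen with earlier results of these data known, so these shares are given side by side only. The lower ones were *salm* (spalt, -0.77 ± 0.19, also called against all other kept cells), *foxo* of insulin signalling (-0.45 ± 0.11), *CEBPA_S3* (-0.84 ± 0.18) and *Bgb_S1*, named after a partner of Runt factors in flies (-0.49 ± 0.12). The lower level of *CEBPA_S3* varied in size between libraries. It had 21.8, 26.6, 33.2, 16.7 and 59.2 CPM without precursors in EFLamide-rich cells of male 1, male 2, female 1, female 2 and female 3, against 31.0, 35.2, 118, 101 and 89.8 in other peptide-rich cells. The values of female 1 and female 2 rest on few UMIs, from 34 and 22 EFLamide-rich cells, so the size of the difference there is uncertain.

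*Gad1*, which makes the transmitter GABA, was nearly missing. In EFLamide-rich cells 7 of 437 had a UMI, with 6, 1, 0, 1 and 12 UMIs in male 1, male 2, female 1, female 2 and female 3. That is 5.24, 2.04, 0, 8.37 and 13.9 CPM without precursors, against 41.4, 70.3, 33.3, 54.4 and 47.9 in other peptide-rich cells. EFLamide-rich cells were lower in every library, without overlap of the cell sets (log2 fold change -2.80 ± 0.28 SE, edgeR adjusted p = 4.4e-07, and -2.36 ± 0.28 SE against all other kept cells, edgeR adjusted p = 3.0e-06). After thinning, *Gad1* was found in 0% to 0.781% of EFLamide-rich cells, against 1.13% to 2.09% of other peptide-rich cells. *Gad1* cells are rare, however. In other peptide-rich cells 50% of the UMIs lay in 34 cells, of which an equal share would be 2.29 EFLamide-rich cells. By *EFLa* count, *Gad1* had 35.0 CPM without EFLa in kept cells with 0 UMIs, 19.4 with 51 to 100, 1.17 with up to 200 above the limit, 11.6 with more than 200 and up to 500, and 22.6 with more than 500, the last from 7 UMIs of 1 cell in female 3.

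The other transmitter genes were not called, and the medians of the list were -0.57 over 6 tested genes against all other kept cells and -0.93 over 5 against other peptide-rich cells. *VAChT*, which loads acetylcholine into vesicles, had 36.7, 22.5, 16.6, 8.37 and 36.0 CPM without precursors in EFLamide-rich cells of male 1, male 2, female 1, female 2 and female 3, against 29.8, 21.4, 25.5, 10.9 and 38.6 in other peptide-rich cells (log2 fold change 0.02 ± 0.18 SE). *Th*, *Ddc*, *Tdc2* and *Dbh* of monoamine synthesis were tested against all other kept cells and not called, with log2 fold changes of -0.64 to -0.39. *Vmat*, the monoamine vesicle transporter, had 3 UMIs in all EFLamide-rich cells and was not tested.

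**Figure D5:**
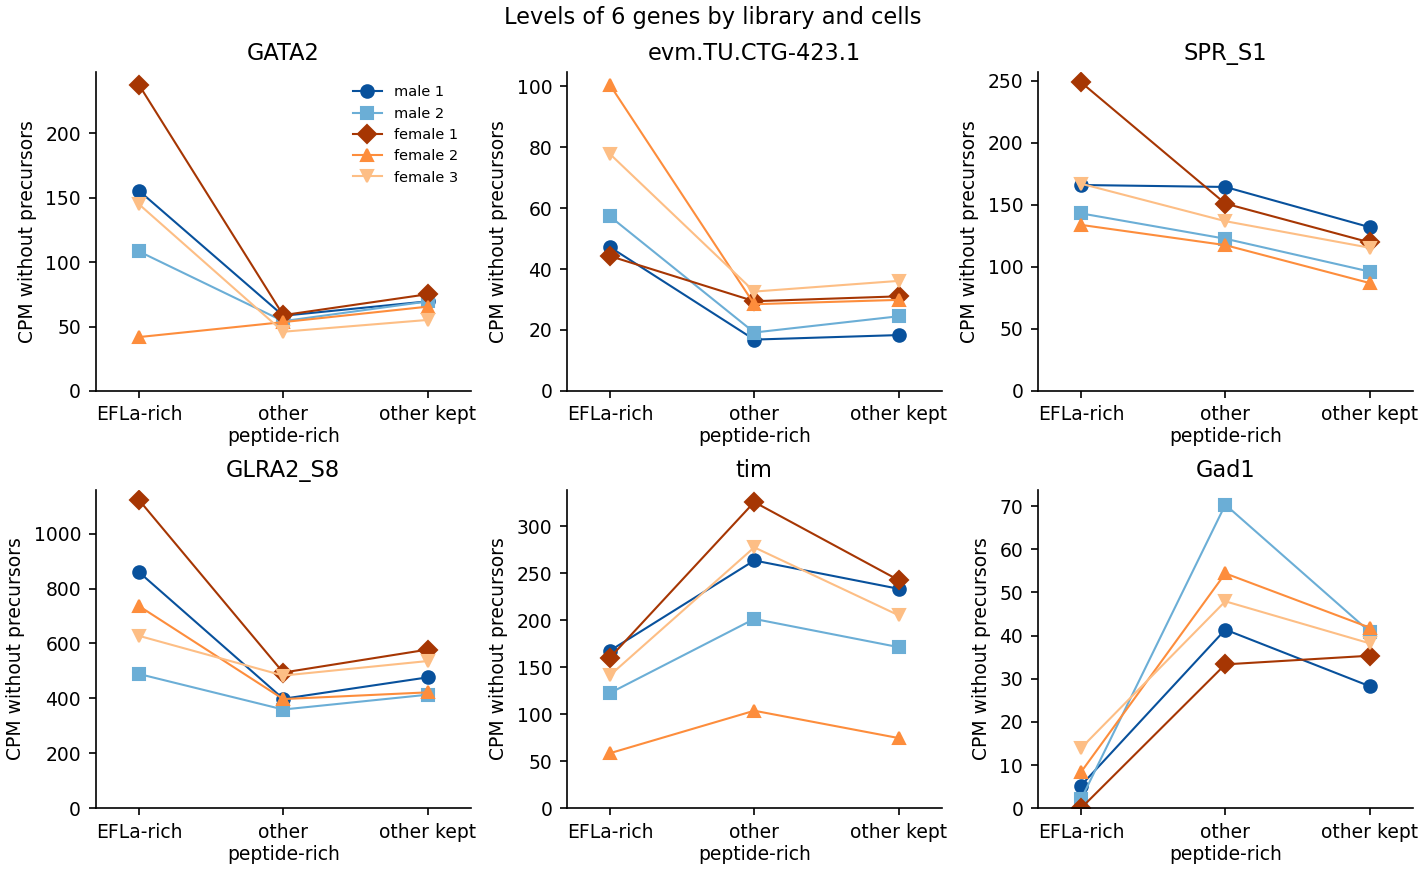
Levels of 6 genes in CPM without precursors, in EFLamide-rich cells (left), other peptide-rich cells (middle) and other kept cells (right), 1 line per library. GATA2 is higher in EFLamide-rich cells in 4 of 5 libraries, evm.TU.CTG-423.1, SPR_S1 and GLRA2_S8 in all 5 against both other sets, and tim and Gad1 are lower in all 5.

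Among receptors of transmitters and neuropeptides, 31 of 47 were tested against all other kept cells, with 3 higher and 0 lower and a median log2 fold change of 0.00, against -0.02 over all genes. These calls are 9.68% of the 31 tested, where 3.35% of all genes were called. *SPR_S1*, named after the sex peptide receptor, which in insects also binds myoinhibitory peptides, had 156 and 136 CPM without EFLa in EFLamide-rich cells of male 1 and male 2, and 235, 124 and 156 in those of female 1, female 2 and female 3. Other kept cells had 122, 91.1, 113, 81.4 and 108. It was higher in all 5 libraries (log2 fold change 0.48 ± 0.10 SE, edgeR adjusted p = 0.0035). Against other peptide-rich cells its log2 fold change was 0.22 ± 0.10 (edgeR adjusted p = 0.53), and 0 of 21 receptors were called (median 0.06, against -0.01 over all genes).

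The other 2 receptors have no name here. evm.TU.CTG-627.10 had 0.87 ± 0.15 (edgeR adjusted p = 4.1e-04) and evm.TU.CTG-1295.1 had 0.94 ± 0.25 (edgeR adjusted p = 0.035) as log2 fold changes against all other kept cells. Both were higher in 4 libraries and lower in female 2, where they had 1 and 0 UMIs.

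Further genes, none of them in the lists, were chosen after their values were seen, because they were called in the second comparison, have a name and are spread over many cells. *GLRA2_S8*, named after a glycine-gated chloride channel, had 860, 489, 1122, 736 and 628 CPM without precursors in EFLamide-rich cells of male 1, male 2, female 1, female 2 and female 3, against 398, 359, 494, 397 and 483 in other peptide-rich cells (log2 fold change 0.75 ± 0.10 SE, edgeR adjusted p = 2.9e-05). It was higher in all 5 libraries, yet its share of cells after thinning overlapped, at 13.6% to 28.4% against 16.8% to 19.5%. A set of 16 EFLamide-rich cells held 50% of its UMIs. In female 1, 141 of its UMIs lay in the 3 cells with more than 500 *EFLa* UMIs, at 5450 CPM without EFLa. The other EFLamide-rich cells of female 1 had 401 CPM with up to 200 *EFLa* UMIs and 315 with more than 200 and up to 500. Kept cells of female 1 with 0 *EFLa* UMIs had 547 CPM. *Rgk3* (0.37 ± 0.09), *EndoB_S2* (0.57 ± 0.12), *Cow_S1* (0.32 ± 0.07), *dpr4* (0.33 ± 0.08), *mmd_S5* (0.60 ± 0.09) and *cpx_S1* (0.36 ± 0.09), the last named after complexin of the release machinery, were higher in all 5 libraries too. *dpr4* belongs to a family of surface proteins by which neurons of flies recognise partners.

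*tim*, named after the clock gene *timeless* of flies, was lower in both comparisons. It had 168, 123, 160.3, 58.6 and 142 CPM without precursors in EFLamide-rich cells of male 1, male 2, female 1, female 2 and female 3, against 264, 202, 326, 104 and 278 in other peptide-rich cells (log2 fold change -0.84 ± 0.10 SE, edgeR adjusted p = 3.7e-06). EFLamide-rich cells were lower in every library, while the levels of both sets varied by library, with female 2 lowest in both. Against all other kept cells the log2 fold change was -0.58 ± 0.10 (edgeR adjusted p = 2.8e-04). *SERP2* (-0.44 ± 0.07), named after a protein of the endoplasmic reticulum, and *CRHBP_S3* (-0.71 ± 0.11), named after a binding protein of corticotropin-releasing hormone, were lower than in other peptide-rich cells in all 5 libraries, and *St3* (-2.18 ± 0.25) had 50% of its UMIs in 1 EFLamide-rich cell.

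A few heat shock genes, also chosen after their values were seen, were among the genes called against all other kept cells. Of 10 tested genes named as heat shock proteins or their helpers, 5 were called higher and 5 were not called, where 0.507% of all genes were called higher. The 5 called genes were higher in each of the 5 libraries. These were *HSP74_S1* (0.36 ± 0.08), *HSP74_S4* (0.30 ± 0.08), *HSP74_S5* (0.42 ± 0.11), *stv_S2* (0.41 ± 0.10) and *l(2)efl* (0.32 ± 0.08). Against other peptide-rich cells 0 of these 5 were called, with 0.12 to 0.20 on the log2 scale. Such genes rise when tissue is dissociated, and their part in the other results was not tested.

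The sexes were compared over libraries. The share of EFLamide-rich cells was 1.66% ± 0.54 in male libraries (SD, n = 2) and 1.06% ± 0.61 in female libraries (SD, n = 3), a difference of 0.604 percentage points (two-sided exact permutation test, p = 0.4). With 2 against 3 libraries the smallest p is 0.2, so no difference could pass. The level of *EFLa* over all kept cells was 1785 and 1615 CPM in male libraries and 1315, 1052 and 1641 CPM in female libraries, with female 3 between the male libraries (difference of 0.37 in mean log2 CPM, two-sided exact permutation test, p = 0.4). With a mitochondrial share under 20%, the share was 2.72% and 2.13% in male libraries and 1.42%, 0.724% and 2.04% in female libraries, and the sexes did not overlap (two-sided exact permutation test, p = 0.2, the smallest the test can give).

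Within EFLamide-rich cells, 5 of 5932 genes tested differed between the sexes by edgeR (0.0843%), 3 higher (0.0506%) and 2 lower (0.0337%) in males, and 140 had an unadjusted p under 0.05. evm.TU.CTG-333.35 had 143 and 127 CPM without EFLa in male 1 and male 2, and 5.23, 0 and 15.1 in female 1, female 2 and female 3 (log2 fold change 3.62 ± 0.45 SE, edgeR adjusted p = 0.0096). *ENOX2_S2* had 149.6 and 156 CPM in male 1 and male 2, and 977, 899 and 1107 in female 1, female 2 and female 3 (-2.72 ± 0.36, edgeR adjusted p = 0.011). evm.TU.CTG-1523.1 had 9.87 and 5.84 CPM in the male libraries, and 199, 132 and 138 in the female libraries (-4.18 ± 0.41, edgeR adjusted p = 0.0015). The sexes did not overlap for any of the 5 genes. The count was 1 without female 3, 2 without female 1, 8 without male 1 and 11 without male 2.

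These differences were not a property of EFLamide-rich cells alone. In all other kept cells the same 5 genes had the same direction, with log2 fold changes of 3.67 ± 0.25 for evm.TU.CTG-333.35, -2.66 ± 0.31 for *ENOX2_S2* and -3.28 ± 0.30 for evm.TU.CTG-1523.1, all called there. evm.TU.CTG-333.36 had 2.20 in EFLamide-rich cells and 1.65 in other kept cells, and evm.TU.CTG-1481.6, named after its values were seen, had 2.74 and 1.43, neither called in other kept cells. The difference between the cell sets was not tested. Of 36 other precursors tested within EFLamide-rich cells, 0 differed between the sexes, with a median log2 fold change of -0.14, against 0.00 over all genes. The lists of neuron (5 tested), secretory (18), transcription factor (18) and receptor genes (15) had 0 calls as well.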

How the data were processed

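The authors aligned and counted the reads with Cell Ranger 4.0.0 and deposited UMI counts of called cell barcodes, for 19195 genes (37 mitochondrial) in each of 5 libraries, without normalization. Genome build and annotation are the authors' own and no positions were used. Gene names are those the study gives. Cells and lists were chosen with earlier results of these data known.

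UMIs were summed per library and cell set, because cells are not replicates. Sums were tested in R 4.3.3 with edgeR 4.0.16 (TMM, filterByExpr, glmQLFit, glmQLFTest, Benjamini-Hochberg adjustment at 0.05), with library as a block between cell sets and no block between the sexes. Fold changes are EFLamide-rich over other cells, or male over female. DESeq2 1.42.0 was an alternative. The fits were tested on simulated data in which all libraries shared 1 profile. In each comparison the 200 changed genes were taken from those above the median level, so recovery of lower genes was not tested. Of the genes left unchanged, edgeR called 15 against all other kept cells, 10 against other peptide-rich cells and 11 between the sexes. Of genes changed by 1 on the log2 scale, 97% were recovered against all other kept cells, 100% against other peptide-rich cells and 25% between the sexes, where 95% of those changed by 2 were recovered, so small sex differences could be missed. CPM are per 1000000 UMIs without EFLa, or without all 71 precursors. Single values were compared with exact permutation tests in Python 3.11.15 with scipy 1.17.1. Doublets were scored with Scrublet in scanpy 1.11.5.

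Genes named were those of the fixed lists (precursors, neuron, glia, hemocyte, fat body, transmitter, mushroom body, secretory, transcription factor and receptor genes). Others were called genes with a log2 fold change of at least 1 and 1 direction in every library, up to 15 named and 2 unnamed per direction. Genes outside the rule are marked as chosen after their values were seen. Alternatives were the test, the count filter, limits of 50 and 200 UMIs, mitochondrial shares, doublets, depth, blocks and single libraries.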

Additional observations from a re-analysis of the deposited data

Results flagged for a closer look

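Barcodes outside the limits on cells held a signal. More than 100 UMIs of *EFLa* were found in 14 barcodes that the limits removed, 9 in male 1, 4 in male 2, 0 in female 1, 0 in female 2 and 1 in female 3. All 14 had a mitochondrial share of 40% or more. They entered no comparison, and what they are was not tested.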

How the results depend on the processing

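Between EFLamide-rich and all other kept cells, the number of called genes (363) was 242 to 529 over the planned and added alternatives that kept the library block and all libraries, and 67 without it. Against other peptide-rich cells (104) it was 59 with DESeq2, 284 without a count filter, 240 at a limit of 50 UMIs, 162 without the highest doublet scores (an alternative chosen after seeing the data), and 4 without the block, of which 0 were higher. Between the sexes (5) it was 10 with DESeq2, 61 without a filter and 3 at a limit of 200 UMIs. With the replicate number as a block it was 21, but only 2 numbers are shared by the sexes. Deviations of same-numbered libraries from the mean of their sex had correlations of -0.03 and 0.11. With 2 male libraries these deviations mirror each other, so whether the numbers pair libraries cannot be read from these values. Leaving out 1 library gave 269 to 380, 67 to 149 and 1 to 11 calls in the 3 comparisons. The second count was 67 without male 1, and the third was 1 without female 3, 2 without female 1, 8 without male 1 and 11 without male 2. When 1 library was left out, the difference in share between the sexes was 0.222 to 0.986 percentage points and that in *EFLa* level 0.21 to 0.53 on the log2 scale. With all libraries, the difference in share was 0.118 percentage points at a limit of 200 UMIs and 1.03 with a mitochondrial share under 20%. *Relaxin-like* reversed to 0.13 at a limit of 50 UMIs and *Proc* to 0.054 at a limit of 200. The cause was not tested for any of these. Among values of single named genes, 14 of 265 against all other kept cells, 9 of 50 against other peptide-rich cells and 12 of 25 between the sexes lost the call when 1 library was left out. Second precursors were met in 104 to 188 cells over all settings.

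Depth limits the small sets. Female 2 gave 22 EFLamide-rich cells and female 1 gave 34, so single cells can set their levels. The set leaves out 443 kept cells at 51 to 100 *EFLa* UMIs, and whether these are cells of the same kind was not tested. The labels used here give no preparation batch, so sex and preparation cannot be told apart.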
